A study of Mus musculus with 37 samples.

Results

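The comparison described here is of immortalized mouse cardiac fibroblasts (CFs) kept for 48 h in myocyte conditioned medium (MCndM) from rat neonatal ventricular myocytes (NRVM) that had been given AMP, against the same cells kept for 48 h in MCndM from NRVM given vehicle. It rests on 4 bulk RNA libraries, 2 per medium, of the 37 samples of the series, and these 4 were chosen by their labels alone. The CFs were wild type and of the C57BL/6 strain in both groups, had been immortalized with the SV40 antigen, a viral protein known to bind p53 and RB, and stood in serum-free medium with insulin, transferrin and selenium for 24 h before the MCndM was added. Fibroblasts carrying an empty or an ENPP1 lentivirus were both made in the study, and the labels do not say which line was sequenced. The paper counts n as biological replicates and gives n = 2 for its principal component analysis of CFs in ENPP1+ATP MCndM. The cells are a line, so the libraries of a group share their origin, and nothing in the labels says that they came from separate cultures. The p-values below then measure the spread between libraries, which may be technical. All 20 CF libraries, from 5 media at 24 h and 48 h, served to estimate that spread.

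ENPP1 is an ectoenzyme that splits extracellular ATP into AMP and pyrophosphate, and the question put to these libraries was what fibroblasts transcribe when they meet what cardiomyocytes release after exposure to AMP. p53 is a transcription factor held low by MDM2, and under nucleotide or DNA stress it accumulates and switches on genes of cell cycle arrest and of apoptosis, MDM2 itself among them. Cardiac fibroblasts are otherwise known for laying down collagen and other matrix, and, like all dividing cells, for a steady need of nucleotides, sterols and fatty acids, both lipid classes made under control of the SREBP transcription factors.

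The libraries held 42977352 and 45798436 counted reads in AMP MCndM and 53233534 and 47463759 in vehicle MCndM. Levels are given as CPM, the reads of a gene relative to the TMM-scaled total of its library, with replicate 1 named before replicate 2. Transcripts that mark fibroblasts were present, with Col1a1 at 2458 and 2403 CPM in AMP MCndM and 3833 and 3686 in vehicle MCndM and Vim at 2086 and 2081 CPM in AMP MCndM and 1702 and 1701 in vehicle MCndM, but Thy1 had at most 1 read in any of the 4 libraries. Of 14 fibroblast markers 13 had enough reads to test, and 2 of these were higher and 8 lower in AMP MCndM. Of all tested genes 21.1% were higher and 22.9% lower. Mitochondrial genes took 4.47% and 4.34% of reads in AMP MCndM and 2.25% and 2.15% in vehicle MCndM. The 13 of them on the list used below summed to 25820 and 28790 against 19530 and 18260 CPM. Rows that overlap ribosomal RNA repeats took 1.14% and 0.823% against 0.317% and 0.586% of reads. The 50 highest genes of each library took 13.2% and 12.9% against 10.7% and 10.8%. In the same order, 21255 and 21243 against 23004 and 22697 genes had a read. The median absolute log2 difference between the 2 replicates was 0.145 in AMP MCndM and 0.0846 in vehicle MCndM. The part of these differences in the results was not tested. In bulk RNA, fewer cells of a kind and less RNA per cell cannot be told apart, and each level is a share of the RNA counted. The paper reports that AMP MCndM caused death and loss of CFs. The labels do not say what share of the cells was alive or dying when RNA was taken. The levels in AMP MCndM are therefore not known to be those of an intact culture, and the part of cell death in the results was not tested.

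After 48 h, AMP MCndM was accompanied by a broad change: p53 targets, mitotic genes and contractile genes were higher, while sterol and fatty acid synthesis, amino acid stress genes, interferon-stimulated genes and much of the matrix were lower. Of 17879 genes tested by edgeR's quasi-likelihood test with Benjamini-Hochberg adjustment, 3767 were higher (21.1%) and 4098 lower (22.9%) at an adjusted p under 0.05, or 44% in either direction. With 2 libraries per group, both AMP libraries lay above both vehicle libraries for 33.4% of all tested genes and below both for 38.3%, in all 71.8%, and so did 7863 of the 7865 called genes in either direction, so such separation is the usual case. Many of these changes were small, since 954 of the higher and 839 of the lower genes moved by at least 1 on the log2 scale, and 418 and 255 by at least 2. The median log2 fold change over all tested genes was -0.03. Leaving out any of the 4 libraries left between 2972 and 3532 genes higher and between 3098 and 3578 lower.

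**Figure D1:**
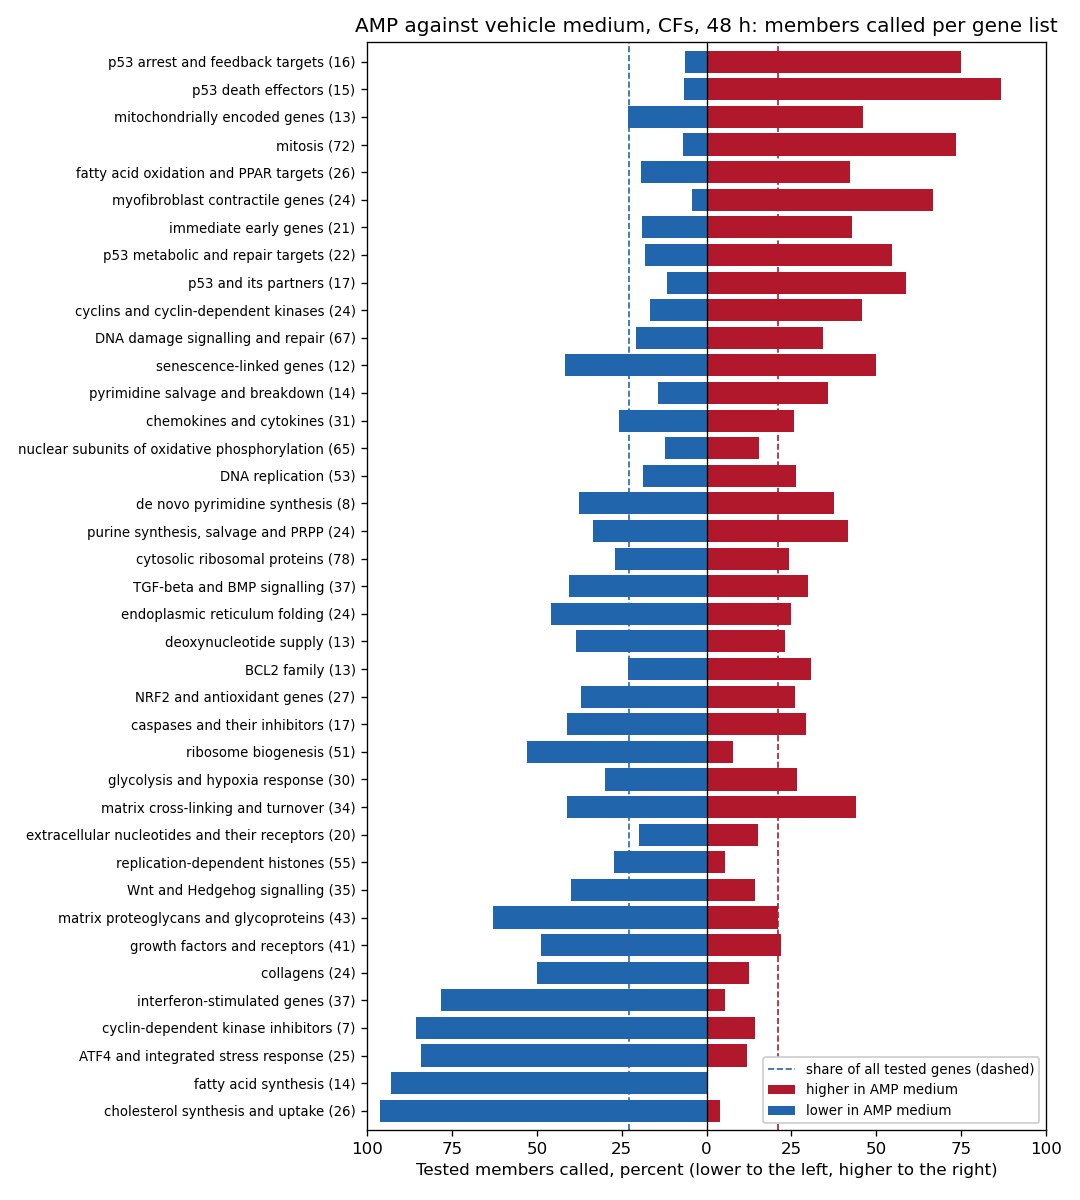
Percent of the tested members of each of 39 gene lists that were called higher (red, to the right) or lower (blue, to the left) in AMP MCndM against vehicle MCndM at 48 h, with the number tested in parentheses and lists ordered by their median log2 fold change. Dashed lines mark the 21.1% and 22.9% of all 17879 tested genes called higher and lower. The lists of p53 targets of arrest and of death stand at the top, and cholesterol synthesis, with 25 of 26 members lower, at the bottom.

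The largest rise among genes with a mean level of at least 2 log2 CPM was that of Angptl4, a secreted inhibitor of lipoprotein lipase. It stood at 134 and 119.9 CPM in AMP MCndM and 1.01 and 0.936 in vehicle MCndM, so that the groups lay far apart (log2 fold change 7.02, SE 0.14, adjusted p = 3.1e-21). The carboxylesterase gene Ces2e followed, at 341 and 333 CPM in AMP MCndM and 4.92 and 7.55 in vehicle MCndM, and its neighbour Ces2f, the sixth in this order, was at 43.9 and 50.7 CPM in AMP MCndM and 1.18 and 2.06 in vehicle MCndM. These paralogs lie side by side on chromosome 8 (GRCm38, chr8:104947355-104961130 for Ces2f) and share sequence, so reads may be split between them and their single values are uncertain. The axon guidance receptor gene Robo3 was at 37.5 and 45.2 CPM in AMP MCndM and 0.773 and 0.999 in vehicle MCndM, and its log2 fold change was 5.55 (SE 0.21). Other genes in the top 12 were Ckmt1, a mitochondrial creatine kinase (log2 fold change 5.05), the membrane protease gene St14 (4.81), the annexin gene Anxa8 (4.95), the TNF receptor gene Tnfrsf18 (4.79), the RNA-binding protein gene Celf5 (4.30), Svop, a synaptic vesicle protein (4.40), and 1700007K13Rik (4.70). All were low in vehicle MCndM, at under 5 CPM in both libraries for each of these genes except Ces2e.

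Cd68, a lysosomal glycoprotein gene used as a macrophage marker, also belonged to the largest rises, at 54.5 and 64.8 CPM in AMP MCndM and 2.6 and 2.83 in vehicle MCndM. Of 10 macrophage markers 4 had enough reads to test, and 3 of these were higher (Cd68, Csf1r and Cd14) and 1 lower (Lyz2). The counts of markers in this paragraph stand beside 21.1% of all tested genes higher and 22.9% lower. The markers summed to 77.9 and 88.5 CPM in AMP MCndM and 17.9 and 16.8 in vehicle MCndM, and Cd68 made up most of the sum in AMP MCndM only. Adgre1 and Mrc1 had at most 2 and 4 reads in any of the 4 libraries compared, Ptprc at most 4, and C1qb none in AMP MCndM. Their part in the results was not tested. Of 8 smooth muscle and pericyte markers 6 had enough reads to test, and of these Notch3, Rgs5 and Des were higher and none lower. The 8 summed to 402 and 429.9 CPM in AMP MCndM and 133 and 128 in vehicle MCndM. Notch3 made up nearly all of these sums, at 391.7 and 418.5 CPM in AMP MCndM and 130.8 and 125.6 in vehicle MCndM. Myh11 and Cspg4 did not pass. Cnn1, though among the 6 tested, and Kcnj8 had no more than 1 read in any of the 4 libraries compared. Of 9 endothelial markers 4 had enough reads to test, and only Vwf was higher and none lower. The 12 cardiomyocyte markers summed to no more than 24.4 CPM in any of the 4 libraries compared. Of the 11 tested, Tnnt2 and Tnni3 were lower in AMP MCndM and none higher.

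The largest falls were led by the sterol reductase gene Tm7sf2, at 2.36 and 3.34 CPM in AMP MCndM and 70.7 and 73.7 in vehicle MCndM (log2 fold change -4.66, SE 0.11, adjusted p = 2.2e-20). Of the 12 largest falls, 5 were enzymes of the mevalonate and sterol pathway (Tm7sf2, Fdps, Hmgcs1, Lss and Mvk), and Acss2, which makes acetyl-CoA from acetate, fell by 3.37 on the log2 scale. Also among them were Lipg, a secreted lipase, with a log2 fold change of -3.25, the small leucine-rich proteoglycan genes Aspn (-3.50) and Podnl1 (-2.71), the amine oxidase gene Aoc3 (-3.00), Rassf2 (-2.88) and Lgi2 (-2.84).

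Targets of p53 that arrest the cell cycle or restrain p53 were higher as a group. Of 16 tested, 12 rose, 1 fell and 3 did not pass, beside 21.1% and 22.9% of all genes, with a median log2 fold change of 1.62. Mdm2, the ubiquitin ligase that holds p53 down, stood at 973 and 1037 CPM in AMP MCndM and 149 and 159.6 in vehicle MCndM (log2 fold change 2.70, SE 0.07, adjusted p = 8.9e-19). Cdkn1a, the inhibitor of cyclin-dependent kinases known as p21, stood at 789 and 815 CPM in AMP MCndM and 138 and 176 in vehicle MCndM (log2 fold change 2.35, SE 0.14, adjusted p = 5.9e-08). Both AMP libraries lay over 4 times above both vehicle libraries for either gene. Ccng1, which feeds back on MDM2, was at 1172 and 1176 CPM in AMP MCndM and 206 and 238 in vehicle MCndM, and the antiproliferative gene Btg2 at 177 and 188 CPM in AMP MCndM and 29.7 and 35.6 in vehicle MCndM. Rprm, which holds cells in G2, had the largest rise of the list from a low level, 14.7 and 14 CPM in AMP MCndM and 1.71 and 2.43 in vehicle MCndM. Gtse1, Zmat3, Trp53inp1, Gdf15, Ppm1d, Plk2 and Mdm4 rose too, by 0.90 (Mdm4) to 2.39 (Gtse1). Against the list, the stress gene Gadd45a fell, from 33.3 and 34.1 CPM to 19.8 and 20.2 (log2 fold change -0.75), and Plk3, Sfn and Cdip1 did not pass. These lists were drawn up knowing that the study had looked at p53 in these same libraries, so they are not independent evidence of the direction. The p53 element, searched on both strands as its full consensus with no spacer, was found in none of the 14 promoter windows at hand for this list and in 0.0087% of all, which says only that these letters are not in these windows. Members named outside the naming rule were chosen after their values were seen. Percentages given with the counts of the lists that follow are shares of the tested members, to be set beside the 21.1% of all genes that were higher and the 22.9% that were lower.

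**Figure D2:**
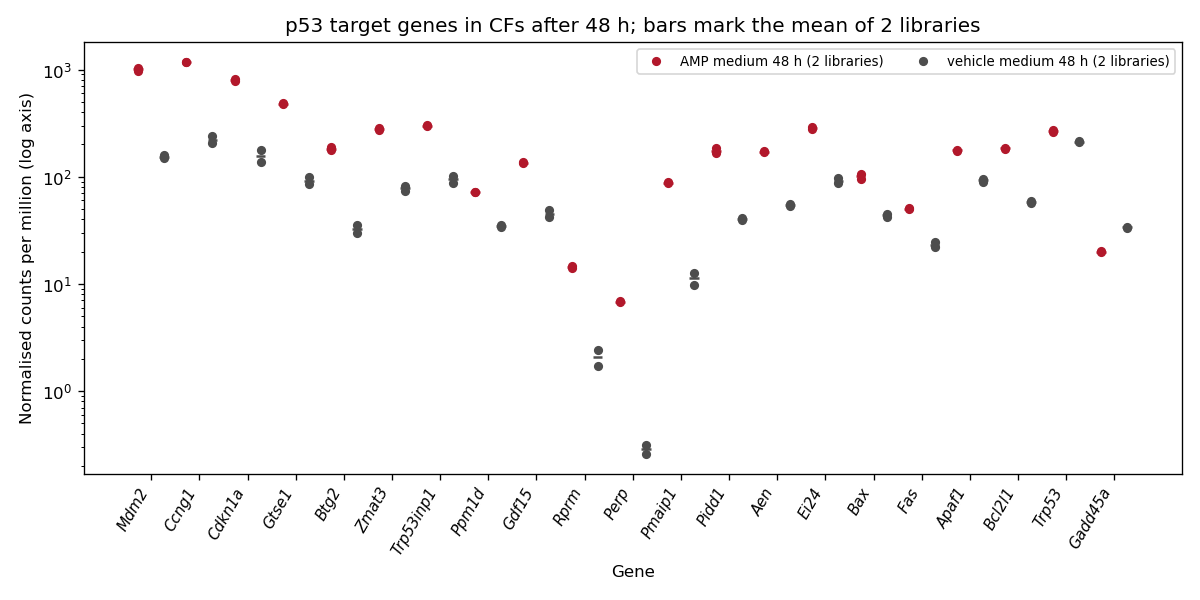
CPM on a log axis of 21 genes in CFs after 48 h, where each point is 1 library (2 in AMP MCndM, red, and 2 in vehicle MCndM, grey) and bars mark their mean. Gadd45a is lower in AMP MCndM, and among the genes that are higher Trp53 itself shows the smallest gap, with a log2 fold change of 0.34.

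Genes through which p53 promotes apoptosis were also higher, 13 of 15 rising, 1 falling and 1 not passing, with a median of 1.15. Perp, a membrane protein of p53-dependent death, was close to absent in vehicle MCndM and present in AMP MCndM, at 6.73 and 6.89 CPM in AMP MCndM and 0.258 and 0.312 in vehicle MCndM (log2 fold change 4.57, SE 0.36, adjusted p = 1.6e-10). Pmaip1, which encodes the BH3-only protein NOXA, was at 88.6 and 87.2 CPM in AMP MCndM and 9.78 and 12.7 in vehicle MCndM (log2 fold change 2.97, SE 0.14, adjusted p = 2.8e-11). Pidd1, a scaffold for caspase-2, was at 166 and 185 CPM in AMP MCndM and 39.3 and 41.1 in vehicle MCndM. The pore-forming gene Bax rose from 42.2 and 45.2 to 107 and 95.7 CPM (log2 fold change 1.21, SE 0.07, adjusted p = 1.4e-13). The nuclease gene Aen (log2 fold change 1.65), Ei24 (1.63), Trp53i11 (2.07), the death receptor genes Tnfrsf10b (1.15) and Fas (1.12), and Apaf1 (0.93), the core of the apoptosome, were higher as well. Bbc3, which encodes PUMA, rose by less (0.46). Trp53i13 fell (-0.86), and Bcl2l11, which encodes BIM, had a log2 fold change of 0.06 and did not pass.

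The p53 targets of metabolism and repair were more mixed. Of 22, 12 rose (54.5%) and 4 fell (18.2%, or 2 without vehicle replicate 2), with a median of 0.25. The multidrug transporter gene Abcb1a was at 16.6 and 18 CPM in AMP MCndM and 1.66 and 1.81 in vehicle MCndM, the epoxide hydrolase gene Ephx1 at 709 and 695 CPM in AMP MCndM and 173 and 187 in vehicle MCndM, and the translesion polymerase gene Polk at 159 and 169 CPM in AMP MCndM and 48.2 and 53 in vehicle MCndM. The repair nuclease gene Ercc5 rose by 1.53. Falls were seen in Pank1 (-0.89), a coenzyme A kinase, and in Sesn1 (-0.63), while its relative Sesn2 rose (1.04). The p53 gene itself, Trp53, changed little but passed the test, at 262 and 274 CPM in AMP MCndM and 213 and 211 in vehicle MCndM (log2 fold change 0.34, SE 0.04). Of p53 and 16 of its partners 10 rose and 2 fell, or 6 and 1 without AMP replicate 2 and 1 fell without vehicle replicate 1. The checkpoint kinase gene Chek2 (0.67) and Rb1 (0.75) rose, and Cdkn2a, whose product ARF restrains MDM2, fell (-0.67).

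Within the BCL2 family, the anti-apoptotic Bcl2l1, which encodes BCL-XL, moved the most among well expressed members. It was at 182 and 186 CPM in AMP MCndM and 57.1 and 59.2 in vehicle MCndM (log2 fold change 1.66, SE 0.05, adjusted p = 2.8e-18). Mcl1, also anti-apoptotic, rose by 0.47, and Bcl2 was at 18 and 18.2 CPM in AMP MCndM and 17.6 and 17.3 in vehicle MCndM and did not pass (adjusted p = 0.73). The pore-forming Bak1 was at 148 and 156 CPM in AMP MCndM and 129 and 144 in vehicle MCndM, and its small rise (log2 fold change 0.15, adjusted p = 0.046) was lost on leaving out AMP replicate 2 (adjusted p = 0.25) or vehicle replicate 1 (adjusted p = 0.45), and with all libraries but no filter on low counts (adjusted p = 0.079, range over all settings tried 0.018 to 0.45). The BH3-only gene Bmf fell (-1.10) and Bid rose (0.29). Over the 13 tested members 4 rose (30.8%) and 3 fell (23.1%), or 1 without AMP replicate 2, beside 21.1% and 22.9% of all genes. Of 17 caspases, their inhibitors and partners 5 rose (29.4%) and 7 fell (41.2%), with log2 fold changes from -0.72 (Casp12) to 1.00 (Dffb), and without AMP replicate 1 there were 3 rises. Casp12 fell from 31.5 and 29.8 to 18.9 and 18.3 CPM, and the nuclease gene Dffb rose from 4.66 and 6.41 to 9.88 and 12.2.

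Most genes of mitosis were higher. Of 72 tested, 53 rose and 5 fell, with a median of 0.37, and their summed level was 9174 and 9199 CPM in AMP MCndM and 6613 and 6866 in vehicle MCndM. Ckap2, a spindle protein gene, stood at 321 and 314 CPM in AMP MCndM and 91.5 and 97.6 in vehicle MCndM (log2 fold change 1.75, SE 0.05, adjusted p = 3.9e-19). The kinesin gene Kif18b was at 197 and 213 CPM in AMP MCndM and 67.7 and 74.4 in vehicle MCndM, the centromere motor gene Cenpe at 214 and 231 CPM in AMP MCndM and 93.2 and 99.8 in vehicle MCndM, and Cdc20, which activates the anaphase-promoting complex, at 166 and 162 CPM in AMP MCndM and 70.2 and 78.5 in vehicle MCndM. Against these, the centromere gene Cenpk (-0.53), the condensin genes Ncapg2 (-0.41) and Smc4 (-0.26), and the mitotic kinase gene Pbk (-0.35) fell.

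Promoters of such genes are known to carry CCAAT boxes and the CHR, an element bound by complexes of RB family proteins that keep them low outside G2 and mitosis. The promoter windows given here are 250 bases before to 50 bases after the RefSeq start (GRCm38.p6), and were available for 60 of the 72 genes. The CHR letters TTTGAA, searched like all motifs here on both strands, were found in 42 of these 60 (70%) and in 14.4% of 11493 tested genes with a window, and CCAAT in 43 (71.7%) against 42.4%. The windows of the 2 genes of the list that rose most are shown, with the CHR letters in capitals, for Ckap2 at chr8:22185770-22186069, minus strand and Kif18b at chr11:102925075-102925374, minus strand.
Ckap2: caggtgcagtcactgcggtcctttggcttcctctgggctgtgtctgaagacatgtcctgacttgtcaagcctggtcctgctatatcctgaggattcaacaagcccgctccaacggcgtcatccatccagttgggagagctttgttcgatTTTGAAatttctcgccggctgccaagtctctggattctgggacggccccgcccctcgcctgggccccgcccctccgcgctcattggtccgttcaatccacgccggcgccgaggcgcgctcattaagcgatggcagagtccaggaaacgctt
Kif18b: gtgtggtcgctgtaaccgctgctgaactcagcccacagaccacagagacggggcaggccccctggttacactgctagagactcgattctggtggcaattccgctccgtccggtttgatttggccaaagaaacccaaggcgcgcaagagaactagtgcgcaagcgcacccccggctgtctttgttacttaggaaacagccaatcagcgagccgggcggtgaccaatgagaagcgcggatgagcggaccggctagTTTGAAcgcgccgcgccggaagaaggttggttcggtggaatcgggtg

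Of cyclins and their kinases 11 of 24 rose (45.8%) and 4 fell (16.7%), or 2 without AMP replicate 1. Ccnd1, the cyclin of G1, was at 153 and 160.1 CPM in AMP MCndM and 23.5 and 25.4 in vehicle MCndM (log2 fold change 2.68, SE 0.08, adjusted p = 1.3e-17), far beyond the spread between libraries. Ccnf (1.25), Ccnb2 (0.90) and Ccnb1 (0.55) of G2 and mitosis rose, while Myc (-0.52) and Cdk2 (-0.20) fell. Of 7 kinase inhibitors other than p21, 6 were lower, with Cdkn1b, which encodes p27, at 94.3 and 83.1 CPM in AMP MCndM and 152 and 157 in vehicle MCndM and Cdkn2b, which encodes p15, at 64.6 and 53.8 CPM in AMP MCndM and 100.5 and 95.8 in vehicle MCndM. Cdkn3 was the exception, at 14.4 and 15 CPM in AMP MCndM and 10.9 and 12.1 in vehicle MCndM, a rise lost on leaving out vehicle replicate 1 (adjusted p = 0.066, range over all settings tried 0.001 to 0.066).

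DNA replication genes showed no common direction at 48 h. Of 53 genes 14 rose and 10 fell, with a median of 0.03, both shares near those of all genes. Orc1 (0.48) and the checkpoint mediator gene Clspn (0.39) rose, and Orc4 (-0.66) and Pold2 (-0.62) fell. Letters of the E2F element, TTCCCGC, were found in 19 of 43 windows of this list (44.2%) and in 9.47% of all. Of 67 repair genes 23 rose (34.3%) and 14 fell (20.9%, near the 22.9% of all genes), led by Msh6 (0.71) and Ercc4 (0.70) on one side and by Apex1 (-0.78) and Ung (-0.69) on the other. Without vehicle replicate 2 the falls numbered 8. Replication-dependent histone genes, whose messages mostly lack a poly(A) tail and whose near-identical copies make single values uncertain, summed to 110 and 83.9 CPM in AMP MCndM and 262 and 244 in vehicle MCndM, with 15 of 55 lower (27.3%, near the share of all genes) and 3 higher (5.45%), and no more than 1 higher when AMP replicate 1, AMP replicate 2 or vehicle replicate 1 was left out. Hist1h1c accounted for most of the difference in the sum, at 23.2 and 19 CPM in AMP MCndM and 111 and 105 in vehicle MCndM.

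Enzymes of nucleotide supply moved in both directions and mostly by little. The first enzyme of pyrimidine synthesis, Cad, was at 254 and 279 CPM in AMP MCndM and 164 and 167 in vehicle MCndM (log2 fold change 0.68, SE 0.06, adjusted p = 1.1e-09). Dhodh, the mitochondrial step, fell from 16.4 and 17.5 to 12.4 and 11.5 CPM (log2 fold change -0.50, SE 0.13, adjusted p = 0.0021). Umps, which makes UMP from orotate and PRPP, was at 93.2 and 96.8 CPM in AMP MCndM and 84.7 and 84.7 in vehicle MCndM, a difference of 0.17 on the log2 scale (adjusted p = 0.0067) that did not pass without AMP replicate 2 (adjusted p = 0.062) or with no filter on low counts (adjusted p = 0.076, range over all settings tried 0.0011 to 0.076). For the 8 genes of the pathway 3 rose and 3 fell (37.5% each). Among the falls, Ctps (-0.13) lost its call with DESeq2, with RLE size factors and with the 4 libraries alone. Among the rises, the call of Nme1 (0.35) depended on which libraries were kept. Of 14 salvage and breakdown genes 5 rose (35.7%, or 3 without AMP replicate 2 or vehicle replicate 1) and 2 fell (14.3%), the rises including uridine phosphorylase Upp1 (3.61 and 3.93 against 0.589 and 0.832 CPM, log2 fold change 2.41) and Dpyd (1.56), and the nucleoside transporter gene Slc29a2 fell (-1.18).

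Genes of purine synthesis, salvage and PRPP were divided, 10 of 24 rising (41.7%) and 8 falling (33.3%, or 5 without AMP replicate 2 or vehicle replicate 1), with a median of -0.002. Aprt, which joins adenine to PRPP to make AMP, was at 146 and 148 CPM in AMP MCndM and 64 and 71.7 in vehicle MCndM (log2 fold change 1.11, SE 0.06, adjusted p = 1.1e-13). Of the PRPP synthetases, Prps2 rose from 80.3 and 82.4 to 158 and 164 CPM and Prps1 from 33.2 and 32.7 to 40.2 and 37.7, with log2 fold changes of 0.98 and 0.24. The salvage gene Hprt (0.74), the adenosine deaminase gene Ada (0.92) and Impdh1 (0.67) were higher. Genes of de novo purine synthesis such as Pfas (-0.43) and Gmps (-0.23), and Nampt (-0.75) and Pnp (-0.38), were lower. Of 13 genes of deoxynucleotide supply 3 rose (23.1%, near the share of all genes) and 5 fell (38.5%). Rrm2, the S-phase subunit of ribonucleotide reductase, was at 225 and 241 CPM in AMP MCndM and 98.8 and 107 in vehicle MCndM (1.18), while Samhd1, which degrades dNTPs, fell (-0.53) and Tk1, of salvage, fell by 0.36.

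At the cell surface, the ATP-gated channel gene P2rx7 rose from 17.9 and 19.9 to 65.2 and 75.4 CPM (log2 fold change 1.90, SE 0.10, adjusted p = 5.9e-13). Nt5e, which encodes CD73 and turns AMP into adenosine, was low in all 4 libraries, at 0.288 and 0.158 CPM in AMP MCndM and 1.6 and 1.98 in vehicle MCndM, and was called lower (log2 fold change -2.99, SE 0.45). Enpp1 itself was at 6.56 and 5.69 CPM in AMP MCndM and 8.17 and 6.1 in vehicle MCndM and did not pass (adjusted p = 0.24). Of 20 genes of extracellular nucleotides and their receptors 3 rose and 4 fell (15% and 20%, no more than among all genes), or 5 and 2 without AMP replicate 1.

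Of the 39 lists, cholesterol synthesis and uptake had the largest share of members called in 1 direction. All but 1 of its 26 genes fell, the median log2 fold change was -2.36, and the list's summed level was 1922 and 1809 CPM in AMP MCndM against 7348 and 7608 in vehicle MCndM. Hmgcs1, which makes HMG-CoA, stood at 84.7 and 73 CPM in AMP MCndM and 640.2 and 694 in vehicle MCndM (log2 fold change -3.08, SE 0.07, adjusted p = 4.2e-21). The groups lay far apart. Later steps fell too, with log2 fold changes of -2.67 for Mvk, -3.16 for Fdps, -1.94 for Fdft1, -2.28 for Sqle, -2.76 for Lss, -2.51 for Cyp51 and -2.62 for Dhcr7. Of the regulators, Insig1 (-2.36) and Srebf2 (-1.16), which encodes SREBP2, fell, and Scap, the escort of SREBP, was the 1 member that rose, from 120.3 and 119.7 to 176 and 191 CPM.

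Fatty acid synthesis followed, with 13 of 14 genes lower and none higher (median -1.32). Acly, which makes cytosolic acetyl-CoA, was at 307 and 314 CPM in AMP MCndM and 1039.9 and 1032 in vehicle MCndM, the desaturase gene Scd2 at 359.7 and 333 CPM in AMP MCndM and 1545 and 1509 in vehicle MCndM and Fasn, the synthase, at 665 and 677 CPM in AMP MCndM and 2015 and 1969.6 in vehicle MCndM. In log2 terms these fell by 1.74, 2.14 and 1.57. Elovl6 (-2.29), Acaca (-1.32) and Srebf1 (-0.98) fell as well, while Elovl1 did not pass (-0.05).

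The promoters of sterol genes are known for SREBP sites beside CCAAT boxes, which bind NF-Y. Windows were available for 18 sterol genes, and 16 of these (88.9%) held CCAAT on either strand, against 42.4% of all 11493. The letters TCACNCCAC of a sterol regulatory element were found in 1 sterol gene, Hmgcs1, and in 1.48% of all genes. A match of letters describes the window and shows no binding. That window (chr13:119690101-119690400, plus strand) is shown with the element in capitals, and that of Tm7sf2 (chr19:6067801-6068100, minus strand), the gene with the largest fall among those of at least 2 log2 CPM, with its CCAAT box, read on the opposite strand, in capitals.
Hmgcs1: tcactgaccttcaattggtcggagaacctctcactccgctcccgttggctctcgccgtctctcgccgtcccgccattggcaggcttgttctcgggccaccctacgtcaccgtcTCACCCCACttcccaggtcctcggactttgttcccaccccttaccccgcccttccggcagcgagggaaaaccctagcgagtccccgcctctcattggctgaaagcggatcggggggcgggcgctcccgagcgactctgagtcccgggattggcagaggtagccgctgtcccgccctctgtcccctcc
Tm7sf2: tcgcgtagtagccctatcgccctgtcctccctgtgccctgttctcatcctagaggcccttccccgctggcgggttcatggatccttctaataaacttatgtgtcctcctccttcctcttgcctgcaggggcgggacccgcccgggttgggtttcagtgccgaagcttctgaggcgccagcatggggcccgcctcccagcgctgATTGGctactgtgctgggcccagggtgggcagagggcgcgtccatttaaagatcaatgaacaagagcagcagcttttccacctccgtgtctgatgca

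**Figure D3:**
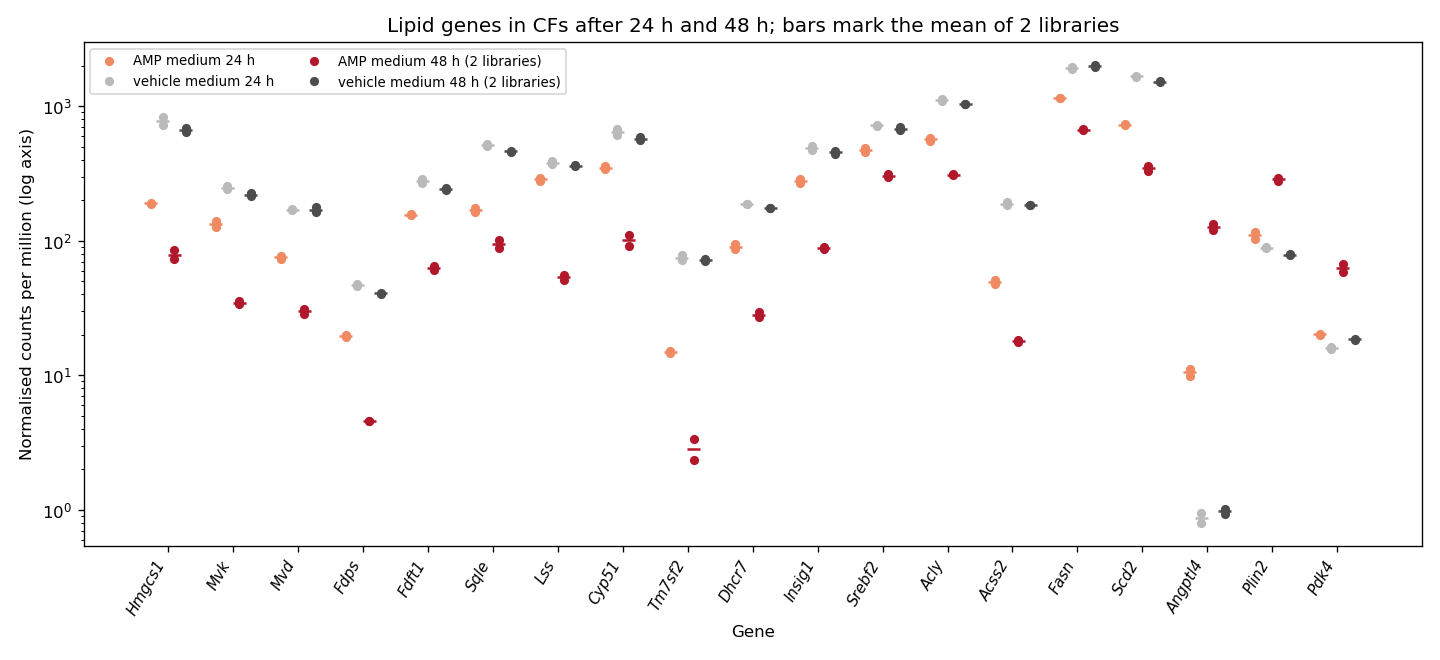
CPM on a log axis of 12 sterol genes, 4 fatty acid synthesis genes and 3 genes of fatty acid handling (Angptl4, Plin2 and Pdk4) in CFs, where each point is 1 library of 2 per group, in AMP MCndM (orange at 24 h, red at 48 h) and vehicle MCndM (light grey at 24 h, dark grey at 48 h), and bars mark means. The sterol genes in AMP MCndM lie below vehicle at 24 h and further below at 48 h, and Angptl4 rises from 1.01 and 0.936 to 134 and 119.9 CPM at 48 h.

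Genes of fatty acid use, many of them targets of the PPAR receptors, tended the other way. Of 26, 11 rose (42.3%) and 5 fell (19.2%), with a median of 0.31. Besides Angptl4, the lipid droplet protein gene Plin2 was at 278 and 294 CPM in AMP MCndM and 78.1 and 79.6 in vehicle MCndM (log2 fold change 1.86, SE 0.06, adjusted p = 1.6e-18) and Pdk4, which shuts off pyruvate oxidation, at 59 and 67.4 CPM in AMP MCndM and 18.2 and 18.7 in vehicle MCndM (log2 fold change 1.77, SE 0.08, adjusted p = 5.1e-15). Lpl, the lipase that ANGPTL4 inhibits, fell from 148 and 158 to 71.9 and 71.9 CPM. Without AMP replicate 2 the falls in this list numbered 2, and without either vehicle replicate 3.

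ATF4 and the genes it drives when amino acids run short were lower. Of 25 genes 21 fell and 3 rose, with a median of -1.21. Atf4 was at 284 and 259 CPM in AMP MCndM and 630.4 and 645 in vehicle MCndM (log2 fold change -1.23, SE 0.07, adjusted p = 1.9e-13). The cystine transporter gene Slc7a11 was at 12.3 and 12.8 CPM in AMP MCndM and 61.3 and 62.7 in vehicle MCndM, the pseudokinase gene Trib3 at 29.4 and 25.3 CPM in AMP MCndM and 114 and 118 in vehicle MCndM, and Chac1, which degrades glutathione, at 17.9 and 17.9 CPM in AMP MCndM and 56.3 and 57.7 in vehicle MCndM. Genes of serine, proline and asparagine synthesis fell with them, namely Pycr1 (-2.28), Psph (-1.40), Phgdh (-1.39) and Asns (-1.27). Sesn2, a stress sensor that p53 also controls, and Atf3 rose by 1.04 and 0.88. Ddit3, which encodes CHOP, rose by 0.19, a call lost without AMP replicate 1 (adjusted p = 0.11) or vehicle replicate 1 (adjusted p = 0.18, range over all settings tried 0.0043 to 0.18).

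A composite element of CEBP and ATF factors has the letters TGATGNAA. They were found in 8 of 23 windows of these genes (34.8%) and in 2.78% of all. The windows of Trib3 (chr2:152344011-152344310, minus strand) and Chac1 (chr2:119350992-119351291, plus strand), both among the 4 largest falls, are shown with the element in capitals as its reverse complement.
Trib3: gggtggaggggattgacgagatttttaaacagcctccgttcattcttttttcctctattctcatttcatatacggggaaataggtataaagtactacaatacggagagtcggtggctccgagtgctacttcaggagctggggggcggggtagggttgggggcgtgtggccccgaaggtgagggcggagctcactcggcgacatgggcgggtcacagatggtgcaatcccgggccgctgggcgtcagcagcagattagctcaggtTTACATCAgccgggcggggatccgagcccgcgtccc
Chac1: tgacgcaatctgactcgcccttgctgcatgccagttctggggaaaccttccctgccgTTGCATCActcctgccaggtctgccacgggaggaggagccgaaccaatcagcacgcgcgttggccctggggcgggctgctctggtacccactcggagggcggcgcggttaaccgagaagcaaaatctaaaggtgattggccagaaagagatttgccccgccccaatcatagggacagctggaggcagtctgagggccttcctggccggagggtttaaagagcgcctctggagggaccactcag

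Of 24 folding genes of the endoplasmic reticulum 11 fell (45.8%) and 6 rose (25%), the rises near the 21.1% of all genes. Hsp90b1 (0.31) and Pdia3 (0.27) rose a little, while Xbp1 (-0.52) and the oxidase gene Ero1l (-0.86) fell. Among 27 antioxidant genes 10 fell (37%) and 7 rose (25.9%), the rises again near the share of all genes. Nfe2l2, which encodes NRF2, rose from 149 and 158 to 253 and 263 CPM, and heme oxygenase Hmox1 rose (0.52), yet the NRF2 targets Nqo1 (-0.61) and Gclm (-0.64) fell.

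Genes of ribosome assembly were slightly lower, 27 of 51 falling and 4 rising (median -0.15). The falls numbered 17 without AMP replicate 2 or vehicle replicate 1. Gar1, of a small nucleolar particle, fell the most (23.4 and 23.8 to 12.1 and 13.6 CPM), and Utp20 rose the most (129 and 130.0 to 221 and 237). Cytosolic ribosomal proteins had a median of -0.01, with 19 of 78 higher (24.4%) and 21 lower (26.9%), near the 21.1% and 22.9% of all genes, or 11 lower without AMP replicate 2. Many of these genes have processed pseudogenes that can take reads. Of 65 nuclear genes of oxidative phosphorylation 10 rose and 8 fell, shares below those of all genes, with 15 falls without AMP replicate 1 and 16 rises without AMP replicate 2. Mitochondrially encoded genes rose in 6 of 13 cases (46.2%) and fell in 3 (23.1%), among them mt-Cytb at 4322 and 5098 CPM in AMP MCndM and 3211 and 2954 in vehicle MCndM, while mt-Nd6, on the other strand, fell (-1.19), and whether reads were counted by strand is not given. Of 30 glycolysis and hypoxia genes 8 rose (26.7%) and 9 fell (30%), also near the shares of all genes, with Vegfa, the angiogenic factor, at 70.6 and 78.9 CPM in AMP MCndM and 148 and 152 in vehicle MCndM and Hk2 lower by 0.72 on the log2 scale.

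More matrix genes were lower than higher. Of 24 collagens 12 fell (50%) and 3 rose (12.5%), with a median of -0.54, and the list's summed level was 9229 and 8573 CPM in AMP MCndM against 14120 and 13240 in vehicle MCndM. Col1a1 was at 2458 and 2403 CPM in AMP MCndM and 3833 and 3686 in vehicle MCndM (log2 fold change -0.63, SE 0.05, adjusted p = 3e-10). Col3a1 was at 867 and 731 CPM in AMP MCndM and 2078 and 1914 in vehicle MCndM (log2 fold change -1.32, SE 0.07, adjusted p = 6.9e-14) and Col11a1 at 129 and 113 CPM in AMP MCndM and 450.0 and 410.2 in vehicle MCndM (log2 fold change -1.83, SE 0.08, adjusted p = 1.6e-12). These collagens fell, and Col4a1 (-0.02) and Col4a2 (0.07) did not pass. Col27a1 (1.21) and Col18a1 (0.46) rose.

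Of 43 proteoglycans and glycoproteins 27 fell (62.8%) and 9 rose (20.9%, near the share of all genes). Ogn, a small leucine-rich proteoglycan gene, was at 27 and 19 CPM in AMP MCndM and 88.8 and 79.1 in vehicle MCndM, elastin, Eln, fell by 1.40, and fibronectin, Fn1, by 0.33 on the log2 scale. Vcan, which encodes versican, rose from 47.5 and 43.2 to 128 and 160.1 CPM (log2 fold change 1.67, SE 0.09, adjusted p = 9.4e-12), and Fbln1 and Dcn rose by 0.78 and 0.56. Cross-linking and turnover genes split evenly, 15 of 34 higher (44.1%) and 14 lower (41.2%). Lox, the enzyme that cross-links collagen, was at 212 and 227 CPM in AMP MCndM and 708 and 713 in vehicle MCndM (log2 fold change -1.69, SE 0.07, adjusted p = 2.3e-14), and Plau, the urokinase activator of plasminogen, at 30.7 and 33.6 CPM in AMP MCndM and 6.66 and 9.05 in vehicle MCndM (log2 fold change 2.04, SE 0.14, adjusted p = 4.3e-11).

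Contractile genes of the myofibroblast were moderately higher, 16 of 24 rising and 1 falling, with a median of 0.31. Acta2, the defining smooth muscle actin, was at 94.5 and 82.2 CPM in AMP MCndM and 86.3 and 87 in vehicle MCndM and did not pass (log2 fold change 0.03, adjusted p = 0.79). The members that rose the most among those kept when any library was left out were Smtn (0.80), Tpm2 (0.69) and Zyx (0.69), of actin filaments and adhesions, and Cnn3 fell (-0.24).

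Signals to and from the fibroblast changed one by one. Of 37 genes of TGF-beta and BMP signalling 11 rose (29.7%) and 15 fell (40.5%), against 21.1% and 22.9% of all genes. The activin subunit genes Inhba (12.1 and 12.3 to 40.2 and 35.1 CPM) and Inhbb (15.7 and 15.5 to 53.5 and 51.8) rose, and Bmp4 (-1.36), Smad6 (-1.51) and the BMP-induced repressor genes Id2 (-1.68) and Id3 (-2.41) fell. In Wnt and Hedgehog signalling 14 of 35 fell (40%) and 5 rose (14.3%), or 3 without vehicle replicate 1. Wnt9a rose from 4.69 and 5.39 to 37.5 and 38.3 CPM (log2 fold change 2.91, SE 0.13, adjusted p = 1.4e-15), and the receptor genes Fzd2 (-1.30) and Fzd4 (-1.26) and the Hedgehog co-receptor gene Gas1 (-1.74) fell. Growth factors and their receptors fell in 20 of 41 cases (48.8%) and rose in 9 (22%, near the share of all genes). Pdgfra, a receptor that marks fibroblasts, was at 10 and 9.49 CPM in AMP MCndM and 46.7 and 36.3 in vehicle MCndM (log2 fold change -2.09, SE 0.12, adjusted p = 7.8e-13), and its ligand gene Pdgfa rose by 0.90.

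Interferon-stimulated genes were lower in 29 of 37 cases and higher in 2, with a median of -0.56. The antiviral GTPase gene Mx1 was at 3.8 and 6.37 CPM in AMP MCndM and 30.9 and 28.5 in vehicle MCndM (log2 fold change -2.54, SE 0.46, adjusted p = 0.00094). Isg15, the ubiquitin-like modifier, was at 201 and 179 CPM in AMP MCndM and 395 and 407 in vehicle MCndM (log2 fold change -1.08, SE 0.14, adjusted p = 3.9e-05) and Ifi44 at 132 and 145 CPM in AMP MCndM and 333 and 337 in vehicle MCndM. The exceptions were B2m, the light chain of MHC class I (0.50), and Ifi27 (0.99). The core of the interferon-stimulated response element, GAAA followed by any 2 bases and GAAA again, was found in 15 of 30 windows of the list (50%) and in 3.8% of all. The window of Isg15 (chr4:156200769-156201068, minus strand) holds 3 overlapping matches, in capitals.
Isg15: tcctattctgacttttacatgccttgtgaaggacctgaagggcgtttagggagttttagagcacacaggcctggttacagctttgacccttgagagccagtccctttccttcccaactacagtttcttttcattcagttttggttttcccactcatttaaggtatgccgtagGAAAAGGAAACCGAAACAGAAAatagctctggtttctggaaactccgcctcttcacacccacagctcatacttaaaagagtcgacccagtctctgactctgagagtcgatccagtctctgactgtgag

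Of 31 chemokine and cytokine genes 8 were higher and 8 lower, 25.8% each way, near the 21.1% and 22.9% of all genes. The IL-6 family cytokine gene Lif rose from 6.61 and 9.09 to 30.1 and 34.5 CPM (log2 fold change 2.05, SE 0.14, adjusted p = 1.5e-10), Lcn2, an iron-binding acute phase protein gene, from 7.12 and 8.28 to 21 and 26, and Csf1, the macrophage growth factor gene, from 784 and 782 to 1322 and 1331. Cxcl10, an interferon-induced chemokine gene, fell from 123 and 124 to 54 and 59.1. Without AMP replicate 2 the list's falls numbered 5, and without vehicle replicate 1 they numbered 4. Among 21 immediate early genes 9 rose (42.9%) and 4 fell (19%). Fosl1, of the AP-1 family, was at 87.7 and 102 CPM in AMP MCndM and 12.5 and 15 in vehicle MCndM (log2 fold change 2.79, SE 0.11, adjusted p = 4.6e-14), Klf4 at 193 and 191 CPM in AMP MCndM and 45.7 and 53.4 in vehicle MCndM, and Fos and Junb rose by 1.77 and 1.09. Of 12 genes linked to senescence 6 rose (50%) and 5 fell (41.7%), Gpnmb, a lysosomal glycoprotein gene, being the clearest rise at 1651 and 1795 CPM in AMP MCndM and 724 and 756 in vehicle MCndM. Without vehicle replicate 2, 2 of them rose.

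**Figure D4:**
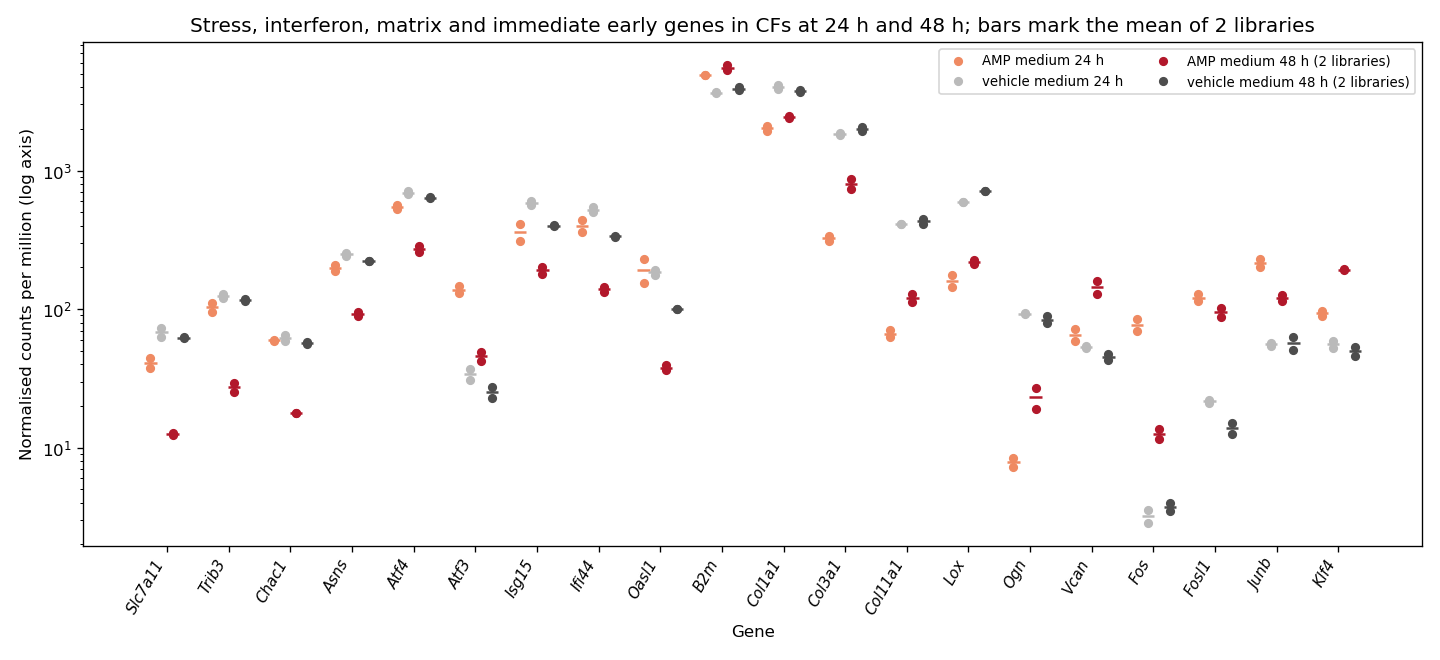
CPM on a log axis of 20 genes of the ATF4, interferon, matrix and immediate early lists in CFs, where each point is 1 library of 2 per group, in AMP MCndM (orange at 24 h, red at 48 h) and vehicle MCndM (light grey at 24 h, dark grey at 48 h), and bars mark means. Chac1 is near vehicle at 24 h and well below it at 48 h, with log2 fold changes of -0.05 and -1.67, whereas Fos in AMP MCndM is closer to vehicle at 48 h than at 24 h.

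How much of this was already present at 24 h was asked with the 24 h libraries, which are other libraries throughout, by testing the difference between the 2 responses. Of the genes called at 48 h, 4920 (62.6%) were called in the same direction at 24 h (52.1% of the 9437 called there), and 742 in the opposite direction. The response was more positive at 48 h for 3093 genes (17.3%) and more negative for 2573 (14.4%), in all 31.7%. The p53 targets of arrest had medians of 1.60 at 24 h and 1.62 at 48 h. For 10 of the 16 the difference did not pass. The response was more positive at 48 h for 2 members, as with Mdm2 (difference 0.36). It was more negative for 4, as with Gadd45a (-0.96) and Btg2 (-0.57). Cdkn1a had a log2 fold change of 2.36 at 24 h and 2.35 at 48 h (difference -0.01, SE 0.20). Ccnd1 went from 1.05 to 2.68 (difference 1.63, adjusted p = 1.8e-10).

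The sterol list changed further between the times. Its median was -0.90 at 24 h and -2.36 at 48 h, and the response was lower at 48 h for 25 of 26 members. For Lss the log2 fold change was -0.41 at 24 h and -2.76 at 48 h (difference -2.35, SE 0.09, adjusted p = 3.4e-15). In the ATF4 list 21 of 25 members had a lower response at 48 h. Chac1 had a log2 fold change of -0.05 at 24 h, not passing the test (adjusted p = 0.51), and of -1.67 at 48 h (adjusted p of the difference 4.7e-12). Of interferon-stimulated genes 17 had a lower and 3 a higher response at 48 h.

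Other lists were nearer to vehicle at 48 h. Immediate early genes had a median of 1.82 at 24 h, and the response of 16 of 21 was lower at 48 h, as with Fos (4.63 to 1.77). Mitotic genes had a median of 0.83 at 24 h, when all 72 were called higher beside 25.3% of all genes, and 53 had a lower response at 48 h. For collagens the median was -1.10 at 24 h and 16 of 24 had a higher response at 48 h. For ribosomal proteins it was -0.55, and 73 of 78 had a higher response at 48 h. Enpp1 was higher in AMP MCndM at 24 h (2.08) and not at 48 h (-0.22, adjusted p of the difference 4.4e-09).

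**Figure D5:**
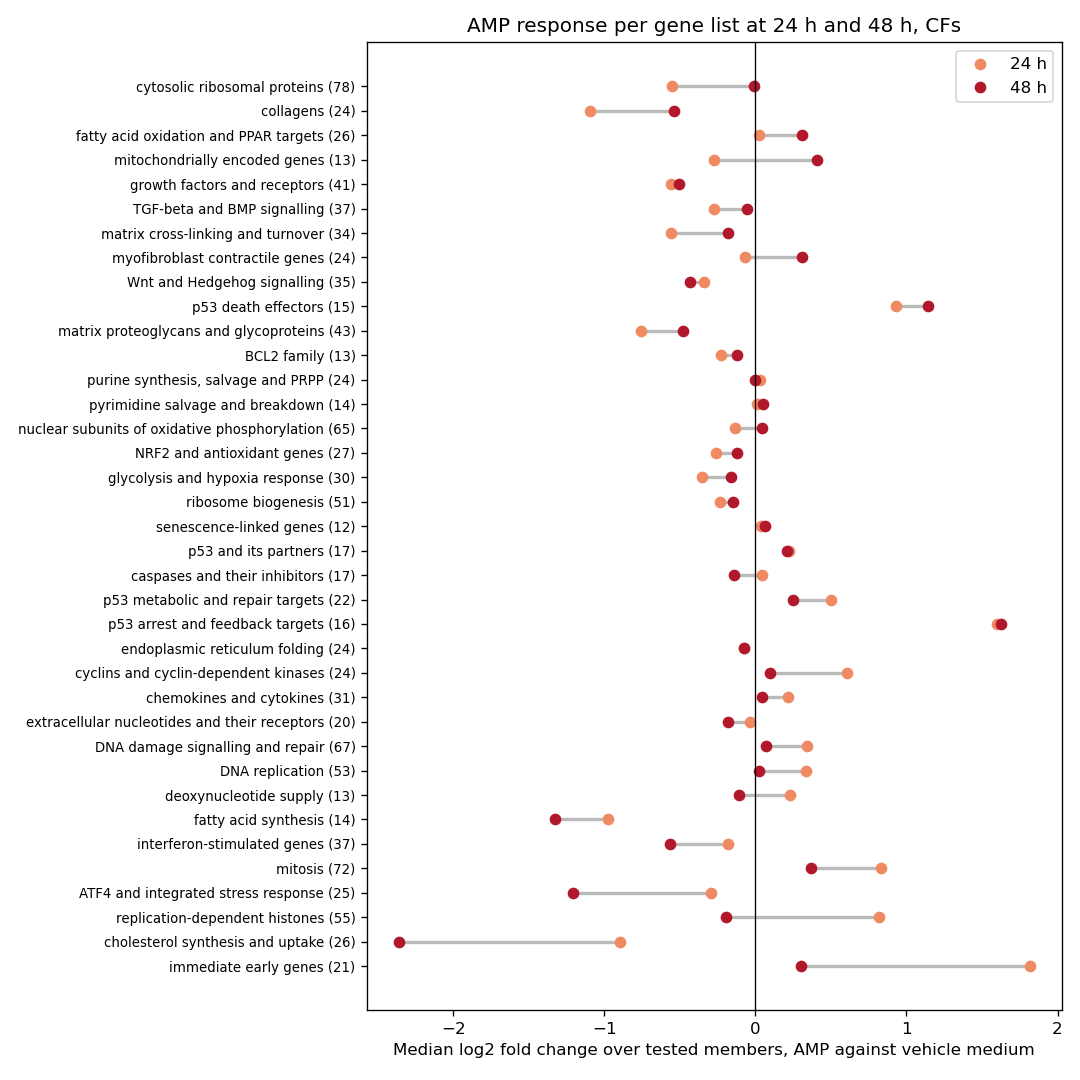
Median log2 fold change of AMP MCndM against vehicle MCndM over the tested members of each gene list of at least 10 members (number in parentheses) at 24 h (orange) and 48 h (red), ordered by the median of the members' differences. Cholesterol synthesis moves from -0.90 to -2.36 and immediate early genes from 1.82 to 0.30.

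At 48 h few genes were called between the AMP libraries and those in MCndM of NRVM given ENPP1 and ATP together. This direct contrast does not use the vehicle libraries. Of 17879 genes 16 were higher in AMP MCndM (0.0895%) and 13 lower (0.0727%), in all 0.162%, and 2460 had an unadjusted p under 0.05. Casp9, the initiator caspase gene of the mitochondrial pathway, was at 28.2 and 30.5 CPM in AMP and 23.5 and 22.5 in ENPP1+ATP MCndM (log2 difference 0.35, SE 0.07, adjusted p = 0.049). B3galt4 (0.83) and Zfp12 (0.33) were also higher in AMP MCndM, and Zfp931 (-0.81) and Cdc26 (-0.40) lower. How many genes passed depended on the model. No gene passed in edgeR when 48 h libraries alone were fitted (2103 with an unadjusted p under 0.05). DESeq2 on all 20 libraries called 103 higher and 55 lower, and edgeR with no filter on low counts 171 and 151. Fewer genes passed in each direction without either AMP library, and more without either ENPP1+ATP library. All 5 genes named here lost their call without either AMP library. Against the shared vehicle libraries, Mdm2 had log2 fold changes of 2.70 in AMP, 2.70 in ENPP1+ATP, 0.98 in ATP and 0.10 in ENPP1 MCndM, and Hmgcs1 of -3.08, -2.92, -0.07 and 0.05.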

How the data were processed

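RNA of 20 CF libraries, 2 for each of 5 media at 24 h and 48 h, was sequenced in bulk. The authors deposited raw counts of reads per gene symbol, 1 column per library and with no pooling, and per the submitters' processing notes reads were mapped with STAR 2.5.3a, with mm10 among the builds named. The counting program and its handling of strand are not given in the sources used here. All 20 columns were matched to samples by name, and none was left over. The table held 30892 genes, of which 17879 passed edgeR's filter on low counts.

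Genes were tested with edgeR 4.0.16 in R 4.3.3 (quasi-likelihood F test, two-sided, TMM scaling, 1 mean per medium and time, 10 residual degrees of freedom, biological coefficient of variation 0.0590), with Benjamini-Hochberg adjustment over all genes tested and a threshold of 0.05. Contrasts were AMP against vehicle at 48 h, that difference against the one at 24 h, and AMP against ENPP1+ATP at 48 h. Every adjusted p in the text is from this fit unless another tool or setting is named. The test was also run on simulated counts of 16877 genes, with the means of the vehicle libraries at 48 h in every group. In the simulated AMP group at 48 h, 100 genes above an expression cut were changed by 0.5 on the log2 scale and 100 by 1. It recovered 67% of the former and 93% of the latter, with 10 false calls. In the real libraries 44% of genes were called, so these rates need not hold there. Depth was 32184799 to 115824659 reads per library, and with 2 libraries per group the precision rests on the spread pooled over all groups. The 39 gene lists, their members and the genes named were chosen with earlier results of these data known. Named by rule were the 12 largest rises and falls of at least 2 log2 CPM whose groups did not overlap, up to 4 members of each list in each direction, 13 genes of p53, the cell cycle and nucleotides whatever their values, and up to 5 genes in each direction of the other contrasts, 310 in all, and 45 more were added after their values were seen. Some genes the rule names are not reported here. Letters of the sterol, ATF4 and interferon motifs were chosen after seeing the data. Gene positions and promoter windows are from RefSeq, GRCm38.p6, and motif searches used the windows of the 11493 tested genes that had one.

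Alternatives were DESeq2 1.42.0, RLE size factors, no filter, replicate number as a block, other sets of libraries for the spread and leaving out each library. One more, leaving out 2 gene rows that overlap ribosomal RNA repeats, was chosen after seeing the data. The rat myocyte and single-cell libraries were not used here.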

Additional observations from a re-analysis of the deposited data

Results flagged for a closer look

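The response of CFs to AMP MCndM differed between 48 h and 24 h for many genes by the test of that difference, being more positive at 48 h for 3093 genes and more negative for 2573. The 24 h and 48 h responses share no library. Angptl4, an inhibitor of lipoprotein lipase, had a log2 fold change of 3.54 at 24 h and 7.02 at 48 h, a difference of 3.47 (SE 0.25). Fndc1, Bmp3, Plxnc1 and Nrep also had a more positive response at 48 h, with differences of 2.80, 2.68, 2.65 and 2.56. Fndc1 had log2 fold changes of -2.79 at 24 h and 0.01 at 48 h, and Bmp3, of the BMP family, of -1.27 and 1.41.

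The response was more negative at 48 h for the lipase gene Lipg, by -3.16, with log2 fold changes of -0.09 at 24 h and -3.25 at 48 h. Among immediate early genes it was so for Egr1, by -3.15 (3.76 and 0.61, the latter call lost at 48 h without AMP replicate 2 or vehicle replicate 1, adjusted p = 0.16 and 0.13, with the call also lost in a fit of the 48 h libraries alone, adjusted p = 0.07, range over all settings tried 1.5e-24 to 0.16, the lowest with no filter on low counts), and Fos, by -2.86 (4.63 and 1.77). Nabp1, which binds single-stranded DNA, and Apobr, a receptor for apolipoprotein B, had differences of -2.58 and -2.37. The adjusted p of these 10 differences ran from 5.4e-12 (Apobr) to 5.7e-05 (Nrep). They kept their direction and passed the test under every alternative tried.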

How the results depend on the processing

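The counts of genes higher and lower in AMP MCndM at 48 h stayed within 1.5 times of 3767 and 4098 under every alternative, and those for the difference between times within 1.5 times of 3093 and 2573. Leaving out a library gave 2972 to 3532 higher and 3098 to 3578 lower genes at 48 h, and 2500 to 3276 and 1949 to 2552 for the difference between times. None of the 7865 called genes that could be tested changed sign under any alternative. RLE size factors and DESeq2 moved the median of all genes from -0.03 to -0.01, and the share of calls that were higher ran from 43.3% (no filter) to 51.3% (DESeq2 and RLE), against 47.9%. With no filter the standard errors of the 355 named genes were 0.2 to 1.34 times those reported (median 0.95), so that its adjusted p can be far smaller for single genes such as Egr1. Leaving out the 2 rows that overlap ribosomal RNA repeats, an alternative chosen after seeing the data, gave 3767 and 4099.

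The direct contrast of AMP with ENPP1+ATP MCndM depended on the model. Against 16 higher and 13 lower, DESeq2 gave 103 and 55, no filter 171 and 151, the 48 h libraries alone 0 and 0, and the 4 libraries alone 1 and 1. Leaving out 1 library gave from 1 to 71 higher and from 0 to 36 lower. The cause was not tested.

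With the replicate number as a block (replicate block), 3817 genes were higher and 4168 lower at 48 h, 3200 and 2661 differed between times, and 28 and 19 differed between AMP and ENPP1+ATP. AMP and vehicle samples of the same number at 48 h did not deviate together (r = -0.0028). Over all pairs of the 10 groups r ran from -0.11 to 0.28, with a median of 0.012. The numbers were therefore taken to name libraries and to pair none.

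Of 339 named genes called at 48 h, 288 kept their call under every alternative. Of 858 counts of list members under an alternative, 824 were within 1.5 times of the main count, and 30 of the 34 that moved did so on leaving out a library. The replicates of AMP MCndM differed more from each other than those of vehicle MCndM. A lone library left by omission was assumed to vary like the other groups.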
